A study of Mus musculus with 6 samples.

Results

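The nuclear-encoded subunits of the mitochondrial respiratory chain and ATP synthase were examined in cells sorted from mouse small cell lung tumours. The list held 43 genes, fixed by name and not by a threshold on measured values, although earlier results of these data were known when it was chosen. Each gene was read from the probe set that the array annotation pairs with it alone and that had the highest mean signal. Of these, 42 were measured among 18193 genes in all: 19 of complex I, 4 of complex II, 6 of complex III, cytochrome c, 7 of complex IV and 5 of complex V. Cox7b, a subunit of complex IV, was not analysed here. Tumour-propagating cells (TPCs) from mice 1127, 920 and 0107 were compared with non-TPCs from the same 3 mice, so 6 arrays were compared, 3 per fraction. All animals were of a mixed C57BL/6;129Sv/J background and carried the Rb/p53/p130 triple knockout, which Cre delivered by adenovirus induces in the infected cells, and tumours were collected 6 to 7 months after infection. Fractions were separated by staining for CD24, CD44 and EpCAM, and no source used here gives the gates. Each mouse gave 1 sample per fraction, and the number of arrays limits the precision.

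Oxidative phosphorylation makes most of the ATP of a resting cell. Complexes I and II take electrons from NADH and succinate, complex III passes them to the soluble carrier cytochrome c, complex IV gives them to oxygen, and complex V uses the proton gradient that I, III and IV build to make ATP. The subunits of complex II and cytochrome c are all encoded in the nucleus, whereas the other complexes combine nuclear subunits with a few encoded by mitochondrial DNA. Nuclear genes for these proteins are commonly controlled by NRF1, by the ETS-family factor GABPA and by YY1, which are broadly expressed transcription factors.

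Of the 42 genes, 30 had at least 1 promoter in the RefSeq promoter table (GRCm38.p6), which gives 250 bases before to 50 bases after each start site, for 33 promoters in all. Promoters were searched on both strands for the letters GCATGCGC (core of the NRF1 element), CCGGAAG (ETS core) and AAGATGGC (YY1 core). The NRF1 core was in 5 of the 33 member promoters, or 15.2%, against 2.71% of all 32851 promoters and 4.05% of the promoters of measured genes. The ETS core was in 6 of 33, or 18.2%, against 8.86% and 13.0%, and the YY1 core in 6 of 33, or 18.2%, against 2.75% and 3.39%. These shares rest on few promoters, and that of the ETS core lay nearest to the share of measured genes. At least 1 of these 3 runs was in 42.4% of the members' promoters, against 13.3% of all promoters and 18.8% of those of measured genes. The 3 motifs do not overlap each other in the windows shown, although the NRF1 core can overlap its own reverse complement. These are matches of letters, not measured binding.

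The following stretches, read 5′ to 3′ along the gene and cut around the matches, show the elements in 5 of the members, with the matches in capitals. They are shown because they cover an electron carrier, both electron-transferring and membrane subunits of complex II, a core subunit of complex I and a stalk subunit of ATP synthase. The stretch of Cycs lies at chr6:50566582-50566669 on the minus strand, that of Sdhb at chr4:140961177-140961300 on the plus strand, that of Sdhd at chr9:50603849-50603935 on the minus strand, that of Ndufs3 at chr2:90904692-90904788 on the minus strand and that of Atp5j at chr16:84834991-84835104 on the minus strand. The capitals mark the NRF1 core in Cycs, the NRF1 core and then the ETS core in Sdhb, the ETS core on the opposite strand in Sdhd, the ETS core on each strand in Ndufs3, and the YY1 core and then the ETS core in Atp5j.
Cycs: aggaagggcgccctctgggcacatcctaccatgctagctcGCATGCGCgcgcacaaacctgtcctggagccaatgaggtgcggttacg
Sdhb: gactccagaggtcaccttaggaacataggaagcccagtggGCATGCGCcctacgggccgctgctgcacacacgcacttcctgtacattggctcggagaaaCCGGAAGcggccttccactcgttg
Sdhd: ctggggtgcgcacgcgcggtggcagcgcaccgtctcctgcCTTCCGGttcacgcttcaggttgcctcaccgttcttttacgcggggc
Ndufs3: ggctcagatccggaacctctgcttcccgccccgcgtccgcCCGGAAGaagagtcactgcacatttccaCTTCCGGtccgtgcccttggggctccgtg
Atp5j: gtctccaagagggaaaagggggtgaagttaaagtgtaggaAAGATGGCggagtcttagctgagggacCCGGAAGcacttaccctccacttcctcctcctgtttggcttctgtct

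The arrays gave log2 signals made by the authors with RMA, and a difference of 1 on that scale is 2-fold. Neuroendocrine markers, which define the tumour cells of this cancer, were bright in both fractions. Their summed linear signal over 10 measured of 12 listed genes was 17017 to 21160 in TPCs and 14808 to 18183 in non-TPCs. The TPC sum was 1.16, 0.967 and 1.29 times the non-TPC sum in mice 1127, 920 and 0107. By mean difference 4 of the 10 were lower in TPCs. Markers of other lung cells were lower in TPCs for most lists. By mean difference all 8 alveolar type 2 and all 8 endothelial markers were lower, as were 7 of 8 fibroblast and 6 of 8 leukocyte markers. Only 4 of 8 smooth muscle and pericyte markers were lower, with a median difference of -0.03. The summed signal of 8 alveolar type 2 markers was 3307 to 5749 in TPCs and 9168 to 18761 in non-TPCs, and 2 of the 8, the surfactant genes Sftpa1 and Sftpc, passed the test. With a replicate block for mouse Sftpa1 passed (limma adjusted p = 0.0286) and Sftpc did not (0.051). For 8 fibroblast markers the sums were 1621 to 3362 in TPCs and 3660 to 21389 in non-TPCs, and for 8 leukocyte markers 1191 to 1762 in TPCs and 1767 to 3176 in non-TPCs. Endothelial markers, again 8, summed to 1526 to 2140 in TPCs and 2022 to 2683 in non-TPCs, and 8 smooth muscle and pericyte markers to 452 to 503 in TPCs and 539 to 2390 in non-TPCs. In these last 4 lists 0 members passed the test, and in the blocked fit the leukocyte marker Lcp1 alone did (difference -2.20, adjusted p = 0.0333). Before adjustment 4 fibroblast, 6 leukocyte, 3 endothelial and 1 smooth muscle or pericyte markers had a limma p under 0.05, as did 5 of the 8 alveolar type 2 markers, against 6.48% of all genes. RMA gives no zero values, but 12 of these 40 markers, among them Col3a1, Lum, Pecam1, Cdh5, Myh11 and Napsa, averaged below 5.21 in TPCs, the first quartile of all genes. The part that these other cells play in the values below was not tested, and in sorted bulk samples fewer cells of a type and less RNA per cell cannot be told apart.

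No respiratory chain or ATP synthase gene passed the test between the fractions. In limma with Benjamini-Hochberg adjustment over all genes, 0 of 42 passed an adjusted p of 0.05, where 0.0605% of all genes did, and the smallest adjusted p among the members was 0.843. In the fit with a replicate block for mouse 0 of 42 passed, against 0.0715% of all genes, and the smallest adjusted p was 0.574. Without adjustment 0 of 42 had a limma p under 0.05 in either of these fits, against the same 6.48% of all genes, or 9.85% with the replicate block. Under some alternatives, given at the end, a few did. The mean differences ran from -0.13 to 0.32.

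The 95% intervals show what size of difference the values allow for each gene taken singly, read from its brightest probe set. They hold at 95% for 1 gene and not for the 42 together, and they do not cover the dimmer probe sets. The 95% intervals of the 42 mean differences together spanned -0.80 to 0.86, or 0.574-fold to 1.82-fold, so every interval lay inside a 2-fold change in either direction. Of all 18193 genes, 81.4% had an interval inside that range. Of the 4279 genes at or above the mean level of Sdhc (8.72), the dimmest member other than Cox4i2, 79.8% did. That set has a lower limit only and is not matched to the members' levels. With the replicate block the bounds were -0.94 and 0.86, and again all 42 lay inside. In the fit without the block the interval of Ndufb10 (-0.71 to 0.86) reached highest and that of Ndufs4 (-0.80 to 0.54) reached lowest. The blocked interval of Ndufb10 was -0.25 to 0.40, and there Ndufv1 (-0.22 to 0.86) reached highest and Ndufs4 (-0.94 to 0.68) lowest. Unless stated otherwise, the SEs, intervals and adjusted p of single genes below are from the fit without the block.

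**Figure D1:**
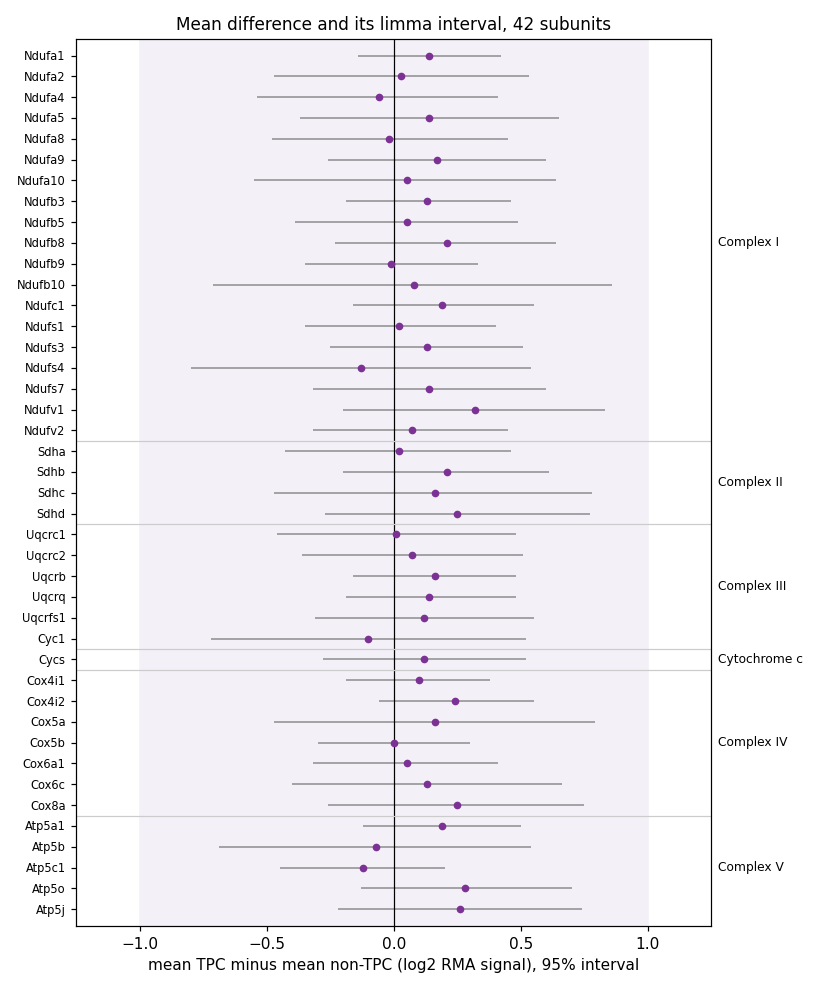
Mean difference of TPC minus non-TPC on the log2 scale for the 42 subunits, grouped by complex. Points are mean differences over 3 mice, lines are 95% limma intervals of the fit without a replicate block and the shaded band marks a 2-fold change in either direction. Means lie between -0.13 and 0.32 and every line stays within the band.

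Within that narrow range the members leaned to slightly higher values in TPCs. The mean difference was above 0 in 34 of 42 members and below 0 in 8, against 58.1% above 0 over all genes. The median difference was 0.12 for the members and 0.04 for all genes. By mouse the members' medians were 0.12, 0.13 and 0.05 in mice 1127, 920 and 0107, against 0.07, 0.05 and -0.03 over all genes. TPCs were higher for 33 members in mouse 1127, 33 in mouse 920 and 23 in mouse 0107, where the shares over all genes were 59.2%, 57.8% and 46.3%. The 4279 genes at or above the dimmest member other than Cox4i2 had medians of 0.02, 0.10 and -0.02 in these mice. TPCs were higher for 52.2%, 64.3% and 48.1% of them, so these genes shared much of the lean in mouse 920. The median rested in part on mouse 920: leaving out that mouse gave 0.07, leaving out its non-TPC array alone gave 0.05, and leaving out mouse 1127 gave 0.08. Members share the same 6 arrays, so these counts are a description.

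Agreement between the mice was partial. TPCs were higher in all 3 mice for 13 members, or 31.0%, against 19.7% of all genes, and lower in all 3 mice for 0 members, against 13.8% of all genes. The 13 were Ndufa1, Ndufb5, Ndufb10, Ndufs7, Sdhb, Uqcrb, Uqcrq, Uqcrfs1, Cox4i1, Cox4i2, Atp5a1, Atp5o and Atp5j, and the other 29 differed in sign between mice. All TPC arrays lay above all non-TPC arrays for Ndufa1 and Cox4i2, 4.76% of the members against 6.71% of all genes, and the reverse held for 0 members against 5.91% of all genes.

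**Figure D2:**
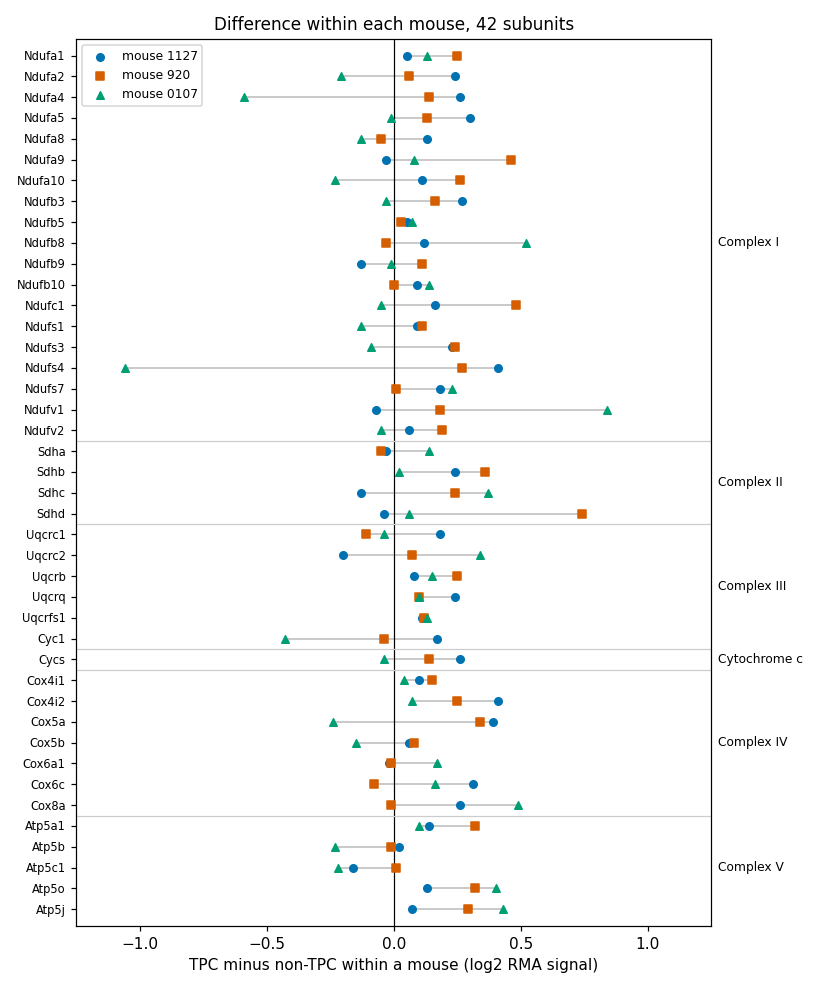
TPC minus non-TPC on the log2 scale within mice 1127, 920 and 0107 for the 42 subunits, grouped by complex, with a grey line from the lowest to the highest mouse. Most points lie close to 0, and the farthest ones are those of mouse 0107 for Ndufs4 at -1.06 and Ndufv1 at 0.84.

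Complex I, the NADH dehydrogenase, held both ends of the range. Ndufv1, the flavoprotein subunit that binds NADH, was at 11.37, 11.57 and 11.58 in TPCs of mice 1127, 920 and 0107, against 11.44, 11.39 and 10.73 in their non-TPCs. The non-TPC array of mouse 0107 was the low one, and the other 5 lay within the range of 11.37 to 11.58. The mean difference of 0.32 (SE 0.22, limma adjusted p = 0.882) was 0.05 at its lowest when arrays were left out, and the other probe sets of Ndufv1 differed by 0.35 and 0.31. Ndufs4, an accessory subunit whose loss in mice causes a fatal encephalopathy, went the other way in the same animal. It was at 10.51, 10.45 and 9.75 in TPCs and at 10.11, 10.18 and 10.81 in non-TPCs of mice 1127, 920 and 0107, so the groups overlapped and TPCs were higher in 2 mice and lower in mouse 0107. Its mean difference was -0.13 (SE 0.28, adjusted p = 0.956), and 0.34 without mouse 0107.

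The remaining 17 complex I genes differed by -0.06 to 0.21 on average. Of the core subunits among them, Ndufs1, an iron-sulphur subunit of the NADH-oxidising arm, differed by 0.02, Ndufv2 by 0.07, Ndufs3 by 0.13 and Ndufs7 by 0.14. Ndufa1, a small membrane subunit, was the one complex I gene whose groups did not overlap, at 13.36, 13.42 and 13.40 in TPCs and 13.31, 13.17 and 13.27 in non-TPCs. That difference was 0.14 (SE 0.12, adjusted p = 0.899). Ndufb10, an accessory subunit of the membrane arm, showed the widest gap between mice. It was at 11.03, 10.02 and 10.53 in TPCs of mice 1127, 920 and 0107 and at 10.95, 10.02 and 10.39 in their non-TPCs, so each mouse kept its own level in both fractions. Ndufa4 was first described in complex I and is now counted with complex IV. Every count, range and median here kept it with complex I, as its name does, and not with complex IV. Ndufa4 differed by 0.26 and 0.14 in mice 1127 and 920 and by -0.59 in mouse 0107. Its mean difference of -0.06 is the low end of the range of the remaining 17, and the next lowest was Ndufa8 at -0.02. Ndufa1, Ndufb10 and Ndufa4 were named after their values were seen.

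All 4 subunits of complex II, the succinate dehydrogenase that also serves the citric acid cycle, had a mean difference above 0, from 0.02 to 0.25, and none passed. Sdhd, a membrane anchor, was at 10.16, 10.89 and 10.19 in TPCs of mice 1127, 920 and 0107, against 10.20, 10.15 and 10.13 in non-TPCs. Only the TPC array of mouse 920 stood above the rest, and the difference of 0.25 (SE 0.22, adjusted p = 0.901) was 0.01 at its lowest when arrays were left out. Sdha, the flavoprotein that oxidises succinate, was at 10.19, 10.09 and 10.61 in TPCs and 10.22, 10.14 and 10.48 in non-TPCs. Here both arrays of mouse 0107 were the highest, and the difference was 0.02 (adjusted p = 0.989). Sdhb, the iron-sulphur subunit whose promoter carries the NRF1 and ETS letters above, differed by 0.21, with TPCs above non-TPCs in 3 of 3 mice, and Sdhc, the other anchor, differed by 0.16.

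In complex III the differences ran from -0.10 to 0.16. Uqcrb, a small subunit that helps to bind ubiquinone, was at 14.01, 14.26 and 14.25 in TPCs and 13.93, 14.00 and 14.10 in non-TPCs of mice 1127, 920 and 0107, higher in TPCs of every mouse with overlapping groups (difference 0.16, SE 0.13, adjusted p = 0.899). These levels are near the top of the scale, whose highest value over all genes was 14.81, and a second, dimmer Uqcrb probe set differed by 0.36 (adjusted p = 0.771 among all probe sets). Cyc1, cytochrome c1, was at 12.04, 11.28 and 11.28 in TPCs and 11.87, 11.32 and 11.71 in non-TPCs. Both arrays of mouse 1127 were the highest, and the difference was -0.10 (SE 0.26, adjusted p = 0.962). Uqcrfs1, the Rieske iron-sulphur protein, differed by 0.11, 0.12 and 0.13 in mice 1127, 920 and 0107, the closest agreement between mice among the genes of this complex, and its mean difference of 0.12 did not pass (adjusted p = 0.936). Cycs, the soluble cytochrome c that also triggers caspase activation when it leaves the mitochondrion, was at 13.43, 13.04 and 13.23 in TPCs and 13.17, 12.90 and 13.27 in non-TPCs. The order of the mice was alike in both fractions except that mouse 0107 led in non-TPCs, and the difference was 0.12 (SE 0.17, adjusted p = 0.933), or 0.01 once the non-TPC array of mouse 920 was dropped.

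Complex IV, cytochrome c oxidase, has alternative forms of its subunit 4, of which Cox4i1 is the general one and Cox4i2 a form found in lung and induced by low oxygen. Cox4i1 was at 13.43, 13.45 and 13.29 in TPCs and 13.33, 13.30 and 13.25 in non-TPCs of mice 1127, 920 and 0107, and differed by 0.10 (SE 0.12, adjusted p = 0.925). Cox4i2 was at 5.79, 5.73 and 5.68 in TPCs and 5.38, 5.48 and 5.61 in non-TPCs. All TPC arrays were above all non-TPC arrays, and the difference of 0.24 (SE 0.13, unadjusted p = 0.0967, adjusted p = 0.843) had the smallest p of the 42. Its levels lie just above the first quartile of all genes, so this difference rests on dim signal. Cox8a, a small nuclear subunit, was at 10.66, 10.14 and 10.31 in TPCs and 10.41, 10.15 and 9.82 in non-TPCs (difference 0.25, SE 0.21, adjusted p = 0.901), with both arrays of mouse 1127 the highest. That difference was 0.10 when the TPC array of mouse 1127 was dropped and 0.09 when the non-TPC array of mouse 0107 was. Cox5b, which binds zinc, was at 13.60, 13.50 and 13.46 in TPCs and 13.54, 13.42 and 13.61 in non-TPCs, and the means differed by 0.00 (interval -0.30 to 0.30). Cox5a, Cox6a1 and Cox6c differed by 0.16, 0.05 and 0.13.

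The 5 genes of complex V, the ATP synthase, differed by -0.12 to 0.28. Atp5o, which encodes the stalk subunit OSCP, was at 11.43, 11.21 and 11.20 in TPCs and 11.30, 10.89 and 10.80 in non-TPCs of mice 1127, 920 and 0107, higher in TPCs of every mouse by 0.13, 0.32 and 0.40. The groups overlapped because non-TPCs of mouse 1127 exceeded TPCs of mice 920 and 0107. The mean difference was 0.28 (SE 0.17, adjusted p = 0.876), and its adjusted p of 0.574 was the smallest of the 42 in the blocked fit. Atp5j, the neighbouring stalk subunit F6, differed by 0.26, with TPCs above non-TPCs in 3 of 3 mice. In the catalytic head, Atp5a1, the alpha subunit, was at 12.40, 12.61 and 12.55 in TPCs and 12.27, 12.29 and 12.45 in non-TPCs (difference 0.19, SE 0.13, adjusted p = 0.886). Atp5b, the catalytic beta subunit, differed by -0.07. Atp5c1, the gamma subunit that turns inside the head, was at 12.66, 12.59 and 12.67 in TPCs and 12.82, 12.58 and 12.89 in non-TPCs, with a difference of -0.12 (SE 0.14, adjusted p = 0.913). A second, much dimmer probe set of Atp5c1 differed by -0.49 (adjusted p = 0.839 among all probe sets), and the mean of both by -0.31.

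**Figure D3:**
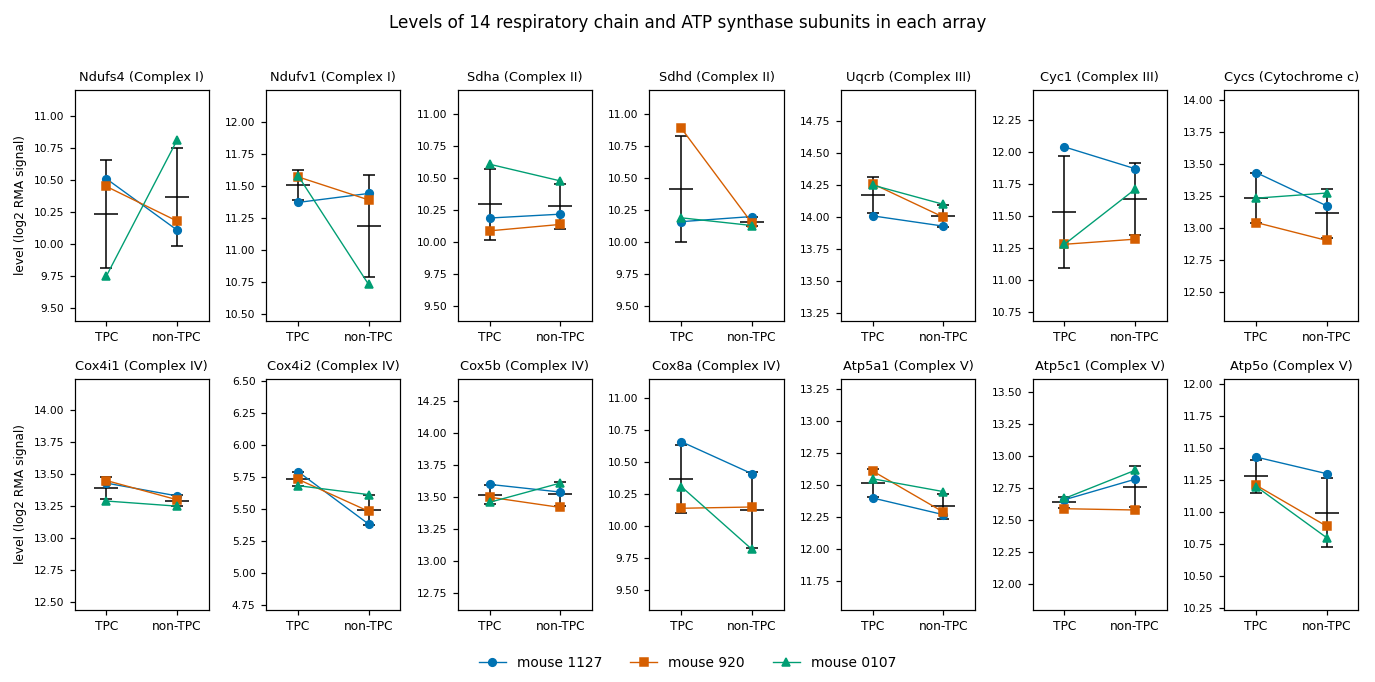
Level (log2 RMA signal) of 14 subunits in TPCs and non-TPCs, with 1 line per mouse and a bar for the mean and SD of 3 arrays. Every panel spans the same width on the log2 scale. Lines run nearly flat for Cox4i1, Cox5b and Uqcrb, while mouse 0107 crosses the others in Ndufs4.

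Levels also varied between the mice. The range of the 3 mouse means, each taken over both fractions, had a median of 0.35 for the members and 0.33 for all genes, and among the members it was widest for Ndufb10 at 0.97, Atp5b at 0.69, Sdhc at 0.69 and Cyc1 at 0.66. Over the 42 genes each array was taken relative to the mean of its fraction, and the correlation between the TPC and non-TPC array of an animal was 0.50, 0.67 and 0.31 in mice 1127, 920 and 0107, and between arrays of different animals it was -0.51 to -0.05. Within a fraction the 3 deviations of a gene cancel out, so positive correlations within animals bring negative ones between animals by construction. Genes are not independent replicates, and both arrays of a mouse share the animal.

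The size of the differences was uneven between mice. The SD of the within-mouse difference over the 42 genes was 0.15 in mouse 1127, 0.17 in mouse 920 and 0.31 in mouse 0107. Over the 4279 genes at or above the dimmest member other than Cox4i2 it was 0.41, 0.39 and 0.63. The members were less dispersed than those genes in each mouse, but that set is not matched to the members' levels. Mouse 0107 was the widest in both sets. The largest of a gene's 3 differences came from mouse 0107 in 20 of 42 members, or 47.6%, against 55.2% of those 4279 genes and 40.9% of all genes. Complex I leaned differently between mice: TPCs were higher for 16 of its 19 genes in mouse 1127, 17 in mouse 920 and 7 in mouse 0107, and its medians were 0.12, 0.14 and -0.03. Complex III kept medians of 0.14, 0.08 and 0.11 in the same mice, complex IV of 0.26, 0.08 and 0.07, and complex V of 0.07, 0.29 and 0.10, while complex II was at -0.04, 0.30 and 0.10. With 1 pair per mouse, differences between mice and between complexes were not tested. In mouse 0107 the summed fibroblast, leukocyte and alveolar type 2 signals of TPCs were 0.625, 0.805 and 0.361 times those of non-TPCs, against 0.157, 0.398 and 0.319 in mouse 1127 and 0.255, 0.555 and 0.306 in mouse 920. The smooth muscle and pericyte sum had ratios of 0.211, 0.733 and 0.84 in mice 1127, 920 and 0107 and the endothelial sum, lowest in mouse 0107, of 0.797, 0.754 and 0.711. The part of these cells in the values was not tested.

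Other mitochondrial genes were read in the same limma fit. Before adjustment, a p under 0.05 was reached by 2 of the further subunits, 1 variant subunit, 2 assembly factors, 0 biogenesis regulators, 1 citric acid cycle gene, 3 antioxidant enzymes, 0 mitochondrial ribosomal proteins and 1 import gene of the lists below. As shares these were 6.45%, 10%, 4.88%, 0%, 6.25%, 30%, 0% and 5.88%, against 6.48% of all genes. Of 31 further nuclear subunits, 0 passed, with a median difference of 0.07 and medians of 0.07, 0.12 and 0.05 in mice 1127, 920 and 0107. Atp5e, the epsilon subunit of ATP synthase, differed by 0.56 (adjusted p = 0.729) and was at 12.18, 11.98 and 12.00 in TPCs against 11.90, 11.44 and 11.14 in non-TPCs, with no overlap. Ndufb4 differed by 0.41 (adjusted p = 0.729) at dim levels of 4.63 to 5.34. Among 10 tissue or stress variants 0 passed (median 0.21). Cox6a2, the heart and muscle form of subunit 6a, differed by 0.97 (SE 0.28, adjusted p = 0.564) and was at 8.74, 9.24 and 9.48 in TPCs and 8.55, 8.32 and 7.70 in non-TPCs, the most separated levels in mouse 0107. Atpif1, the inhibitor of ATP synthase, differed by 0.30 (adjusted p = 0.873). ND5, a complex I subunit and the one mitochondrially encoded gene of 13 listed that was measured, was at 12.68, 12.65 and 11.82 in TPCs and 12.72, 12.56 and 11.93 in non-TPCs (difference -0.02, interval -0.76 to 0.73).

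Of 41 assembly factors 0 passed (median 0.05), with the complex II factor Sdhaf1 at a difference of 0.40 and the copper chaperone Cox17 at 0.30 (adjusted p = 0.765 and 0.769). Of 18 regulators of mitochondrial biogenesis 0 passed (median 0.04), with the coactivator Pprc1 at -0.51 and Yy1 at 0.38. Of 16 citric acid cycle and pyruvate dehydrogenase genes 0 passed (median 0.08). Pdha1, the pyruvate dehydrogenase subunit that feeds the cycle, differed by -0.41 and was lower in TPCs of 3 of 3 mice (adjusted p = 0.754), and Dlat, of the same enzyme, differed by 0.29. Of 10 antioxidant enzymes 0 passed (median 0.12). Glutathione peroxidase Gpx1 was at 10.63, 10.39 and 10.51 in TPCs and 11.34, 11.18 and 11.17 in non-TPCs, a difference of -0.72 (adjusted p = 0.26), and the catalase gene Cat differed by -1.11 (adjusted p = 0.41, against 0.0975 when mice were paired as a replicate block). Both were lower in TPCs of 3 of 3 mice.

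Mitochondrial ribosomal proteins, which make the mitochondrially encoded subunits, had the least even pattern over the mice. Of 30 genes 0 passed and the median difference was -0.05. TPCs were higher for 26 of the 30 in mouse 1127 and 27 in mouse 920, but for 3 in mouse 0107, where the median was -0.40 against 0.17 and 0.20. Mrps34 and Mrpl16, the members of smallest p, differed by 0.27 and 0.20 and were among those 3. The 17 import and outer membrane genes had medians of 0.18, 0.21 and -0.20 in mice 1127, 920 and 0107 with 0 past the test. Tomm70a, an import receptor, differed by 0.42 and Immt, a protein of the cristae junctions, by -0.38 (adjusted p = 0.75 and 0.873). The 42 subunits, at 0.05 in mouse 0107, did not show a median below 0 in any mouse.

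**Figure D4:**
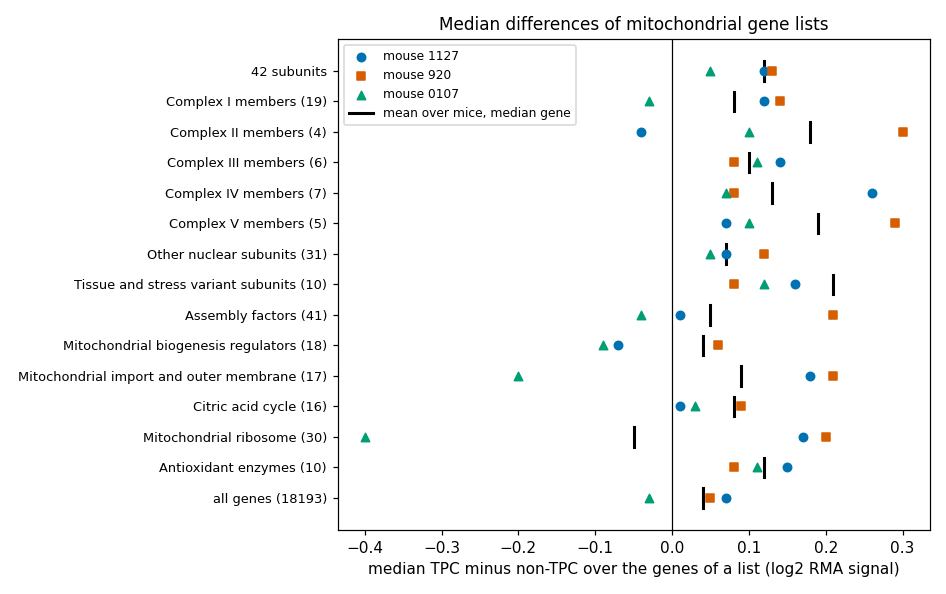
Median TPC minus non-TPC difference on the log2 scale over the genes of each list, by mouse, with the number of measured genes in brackets and a black bar for the median of the mean differences. The mitochondrial ribosome of mouse 0107 lies at -0.40, while the 42 subunits lie between 0.05 and 0.13 in the 3 mice.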

How the data were processed

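Each of the 6 arrays holds total RNA of cells sorted into Trizol, turned into biotin-labelled targets with an Affymetrix whole-transcript kit, per the labels' protocols. The deposited values are log2 signals per probe set that the authors made with RMA, a background correction, quantile normalisation and probe summary, per the submitters' processing notes. No source used here gives its version or the log base, and the values, which run between 2.70 and 14.81, were taken as log2.

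Of 45101 probe sets, 34945 had 1 gene symbol, updated through Entrez identifiers to RefSeq (GRCm38.p6), and the brightest represented each of 18193 genes. The test was limma 3.58.1 (lmFit and eBayes, two-sided, under R 4.3.3) over all genes, with Benjamini-Hochberg adjustment and a threshold of 0.05. The script was checked on simulated data.

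Samples are paired, since each animal gave 1 TPC and 1 non-TPC sample. Over all genes the deviations of paired arrays correlated at 0.30, 0.46 and 0.36 in mice 1127, 920 and 0107. A second fit therefore held the animal as a replicate block.

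The genes and lists were chosen with earlier results of these data known. Values in every array are given for the members with the highest and lowest mean difference of each complex, Cycs, both Cox4i forms and the 3 members of smallest p with 1 sign in all mice. Other members and lists are given by ranges, counts and at most the 2 members of smallest p per list. Ndufa1 and Ndufb10, also given by array, and the members given by single values were chosen after their values were seen, for role, spread or separation.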

Additional observations from a re-analysis of the deposited data

How the results depend on the processing

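No respiratory chain or ATP synthase gene passed the limma test under any of the 16 alternatives run, among them the replicate block, the mouse as a random block, every probe set on its own, genes above the median level alone and each mouse or array left out. Over the 14 members that the naming rule picked, which leaves out Ndufa1 and Ndufb10, the smallest adjusted p of any alternative was 0.457. The pathway lists likewise had 0 members past the test in each alternative. Over all genes 11 were called, 13 with the replicate block, 39 with the mouse as a random block, 4 with the mean of all probe sets, and 0 (without mouse 1127) to 84 (without the non-TPC array of mouse 0107) with a mouse or an array left out. The members' median difference of 0.12 was 0.18 with each array centred on its median, which also moved the median of all genes, so that the members' excess over all genes stayed at 0.08. With a mouse or an array left out the members' median was 0.05 to 0.14 and that excess was 0.02 (mouse 920 lacking its non-TPC array) to 0.11 (mouse 1127 lacking its own). Some members near 0 changed sign. With the mean of all probe sets Sdha differed by -0.02 and Cox5b by 0.12, and Cox5b differed by 0.06 with centred arrays. With a mouse or an array left out the differences ranged from -0.40 to 0.34 for Ndufs4, from -0.14 to 0.12 for Sdha, from -0.35 to 0.07 for Cyc1 and from -0.05 to 0.07 for Cox5b. Those of the other picked members kept their sign, among them Cycs (0.01 to 0.22), Cox8a (0.09 to 0.39), Sdhd (0.01 to 0.40), Ndufv1 (0.05 to 0.51), Atp5o (up to 0.44) and Atp5c1 (-0.21 to -0.06, and -0.31 with the mean of all probe sets). The cause of these changes was not tested. With 3 arrays per fraction, the data do not exclude differences inside the intervals given above, and Cox4i2 is limited by its dim signal.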
